A study of Mus musculus with 13 samples.

Results

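The genes described are 8 epithelial keratins, Krt5, Krt14, Krt15, Krt7, Krt8, Krt18, Krt19 and Krt20, measured in 3 regions of the embryonic mouse urinary outlet. Members were the probe sets whose platform annotation gives a single gene symbol among these 8, which yielded 12 of the 45101 probe sets on the array. The probe set with the highest mean signal over the 13 arrays stood for each gene, and the other probe sets served as a check. All 8 keratins were among the 15019 genes that passed the filter on low values, which asks for an intensity above 167.76 (7.39 on the log2 scale) on at least 3 arrays. The filter was met on 3 or more of the 10 region arrays by 7 of them. Krt20 was above the filter level on 1 region array and passed through the newborn reference arrays.

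The regions were the bladder (3 arrays, replicates 2, 6 and 8), the urethra (3 arrays, replicates 1, 2 and 6) and the urogenital sinus (4 arrays, replicates 1, 2, 6 and 7). They were cut from embryos at embryonic day 14, obtained by crossing FVB/N females with SMGA/EGFP males. In that transgene the promoter of Actg2, a smooth muscle actin gene, drives the fluorescent protein EGFP. Fluorescent tissue was taken as bladder or urethra, and the sinus was the tissue without fluorescence that lay between them, so the reporter marks muscle and not epithelium. The newborn reference (3 arrays) was 1 kind of pooled RNA made from entire wild-type FVB/N animals at postnatal day 1, with 4 males and 4 females in the pool. Replicates numbered 6 or higher were at Theiler stage 22, and those numbered 1 or 2 were at Theiler stage 21. Region RNA was not pooled, its sex is unknown, and no label ties an array to an embryo. The p-values therefore measure the spread between these samples.

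Keratins are the intermediate filament proteins of epithelial cells, and each filament pairs a type I with a type II keratin. Krt5 (type II) with Krt14 or Krt15 (type I) marks the basal layer of stratified epithelia. Krt8 (type II) with Krt18 or Krt19 (type I) is the pair of simple epithelia and of the early embryo, and Krt7 and Krt20 are used to mark urothelium, Krt20 being known for the mature superficial layer. The adult urothelium holds both kinds, with Krt5 in its basal cells.

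Values below are log2 signal intensities, differences are log2 differences with a standard error (SE), and p-values are from limma, adjusted by the Benjamini-Hochberg method over all 15019 genes tested. The threshold for a call was an adjusted p of 0.05. A probe set's level depends on its own probes, so levels were compared between groups and not between genes. In bulk tissue fewer cells of a type and less RNA per cell cannot be told apart, and this holds for every difference reported here.

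The dissection check and the array measures came first. Actg2 read 13.97, 13.51 and 13.55 in the bladder, 12.89, 13.65 and 13.40 in the urethra, and 8.99, 9.31, 7.99 and 10.77 in the sinus. Epcam, a surface protein of most epithelial cells, lay between 13.59 and 15.21 on all 10 region arrays, so each region held epithelium. Its bladder arrays (13.59, 13.87 and 14.00) lay below every sinus and urethra array. The median intensity of an array lay between 142 and 238 in the bladder, 221 and 378 in the urethra, and 259 and 389 in the sinus. The embryonic globin Hbb-bh1 stood at 14.51 on urethra replicate 1 and 15.04 on sinus replicate 1, against at most 10.51 on the other region arrays. The 3′ to 5′ beta-actin difference, a sign of RNA length, was highest on bladder replicate 8 (4.04) and urethra replicate 1 (3.42) among region arrays. The part of these measures in the results was not tested, and values without those arrays are given where a call depends on them.

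Krt5, the type II keratin of basal cells, was low in the bladder, intermediate in the sinus and high in the urethra. It read 8.32, 8.002 and 7.74 in the bladder, 13.87, 11.89 and 13.47 in the urethra, 11.03, 11.87, 11.03 and 11.71 in the sinus, and 14.00, 13.42 and 13.47 in the newborn reference. No bladder array reached any array of another group, and the lowest urethra array lay just above the highest sinus array. The bladder mean was 8.02 ± 0.29 (SD, n = 3), against 13.08 ± 1.04 in the urethra (n = 3) and 11.41 ± 0.45 in the sinus (n = 4). Krt5 fell by 3.39 in the bladder relative to the sinus (SE 0.46, limma adjusted p = 0.00908), which is 10.5-fold. Relative to the urethra it fell by 5.06 (SE 0.49, limma adjusted p = 0.00174), or 33.3-fold. Urethra and sinus did not differ past the threshold, with a difference of 1.67 (95% interval 0.64 to 2.69 without adjustment, limma adjusted p = 0.247). The call against the sinus was lost with arrays centred on their medians (−2.80, limma adjusted p = 0.0681) and without bladder replicate 6 (−3.38, limma adjusted p = 0.0513). Both Krt5 calls were lost with a block for replicate number, which no label ties to an animal. The bladder difference was then −3.02 against the sinus (limma adjusted p = 0.13) and −4.79 against the urethra (limma adjusted p = 0.051).

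Because Krt5 carried the largest regional difference among the 8 keratins, the bases before its annotated start are shown, followed by those of Krt7 and Krt18, a pair of simple-type keratins that were not called between regions. The sequences are the 250 bases upstream of the start in RefSeq's annotation of GRCm38.p6, where 6 of the 8 keratins had an entry. They lie at chr15:101712906-101713155 on the minus strand (Krt5), chr15:101412153-101412402 on the plus strand (Krt7) and chr15:102027966-102028215 on the plus strand (Krt18). Capitals mark matches, on either strand, to the TATA-type motifs TATAAA and ATAAAAG, to GCCNNNGGC, a form bound by the AP-2 family, or to the GC box GGGCGG.
Krt5: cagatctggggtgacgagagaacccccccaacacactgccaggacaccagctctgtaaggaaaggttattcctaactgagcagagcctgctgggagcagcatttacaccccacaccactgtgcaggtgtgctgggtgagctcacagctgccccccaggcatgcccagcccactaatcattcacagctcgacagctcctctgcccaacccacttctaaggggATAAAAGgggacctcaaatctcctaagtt
Krt7: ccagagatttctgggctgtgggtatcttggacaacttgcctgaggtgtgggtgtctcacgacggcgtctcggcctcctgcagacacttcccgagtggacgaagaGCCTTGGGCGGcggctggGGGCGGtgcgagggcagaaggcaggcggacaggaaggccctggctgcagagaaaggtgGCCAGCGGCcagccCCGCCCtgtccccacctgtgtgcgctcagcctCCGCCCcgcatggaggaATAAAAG
Krt18: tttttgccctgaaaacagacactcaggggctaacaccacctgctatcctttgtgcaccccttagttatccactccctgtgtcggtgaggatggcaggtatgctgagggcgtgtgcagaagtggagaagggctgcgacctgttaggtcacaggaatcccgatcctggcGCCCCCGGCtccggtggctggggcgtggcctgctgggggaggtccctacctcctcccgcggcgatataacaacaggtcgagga
The Krt5 window held ATAAAAG at position −29 from the start and no other match. The Krt7 window held ATAAAAG at −7, GCCNNNGGC at 2 places and GGGCGG at 4, with 1 overlap between a GCCNNNGGC and a GGGCGG match. The Krt18 window held 1 match to GCCNNNGGC, at −83. Of 27025 mouse promoter windows of the same length, 5.14% held ATAAAAG, 13% TATAAA, 13.6% GCCNNNGGC and 32.9% GGGCGG. The Krt8 and Krt14 windows held none of these motifs, and the Krt20 window held TATAAA at −29, overlapped by ATAAAAG at −28. These matches describe letters in the windows only.

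Krt15, a type I keratin of basal cells and of stem cell compartments in stratified epithelia, kept the same regional order. It read 10.55, 10.27 and 9.50 in the bladder, 14.28, 14.40 and 14.92 in the urethra, 11.07, 13.24, 11.91 and 12.64 in the sinus, and 12.69, 13.17 and 13.61 in the newborn reference. Its 3 urethra arrays lay above every other array of the series, the newborn reference included, and its 3 bladder arrays lay below all others. Krt15 fell by 4.43 in the bladder relative to the urethra (SE 0.51, limma adjusted p = 0.00337), or 21.5-fold. That call was lost with the style of the sample titles as a block (−3.74, limma adjusted p = 0.115). All urethra arrays share 1 title style that no bladder or sinus array has. That fit thus tells title style from urethra only through the reference arrays, which repeat 1 pooled RNA. Against the sinus the bladder difference of −2.11 (SE 0.48) missed the threshold at a limma adjusted p of 0.0512. It passed without sinus replicate 1 (−2.49, limma adjusted p = 0.0126). The urethra exceeded the sinus by 2.32 (95% interval 1.25 to 3.39 without adjustment), with a limma adjusted p of 0.146.

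Krt14, the usual type I partner of Krt5 in stratified epithelium, was above the filter level on every urethra array and on 3 of 4 sinus arrays. It read 7.13, 7.02 and 6.47 in the bladder, 9.76, 8.91 and 8.81 in the urethra, 8.98, 7.79, 6.99 and 7.52 in the sinus, and 13.93, 14.23 and 14.70 in the newborn reference. Every bladder array was under that level. Krt14 was called lower in the bladder than in the urethra (−2.28, SE 0.51, limma adjusted p = 0.0388), at least 3.40-fold when the bladder is set to the filter level. The call was lost without any 1 of 7 arrays, with limma adjusted p from 0.0597 without sinus replicate 2 to 0.127 without bladder replicate 8, and among these were all bladder and all urethra arrays. It was also lost under both other scalings (limma adjusted p = 0.0855 and 0.108), with no filter (0.0611) and with a block for replicate number (0.112). Further losses came with title style as a block (0.496) and without bladder replicate 8 and urethra replicate 1 together (−1.78, limma adjusted p = 0.288).

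The probe set standing for Krt14 (1423935_x_at) carries a suffix for probes shared with related transcripts, and its other probe sets were read beside it. 1460347_at was at the floor of 5.65 on every bladder array, read 7.19, 8.89 and 8.09 in the urethra and 7.17, 5.65, 5.92 and 5.65 in the sinus, and read 12.95 to 13.82 in the newborn reference. It gave −2.40 for bladder minus urethra (limma adjusted p = 0.0288). That is a fitted value, because the floor left the bladder arrays without spread. The urethra array at 7.19 was itself under the filter level. 1455573_at stayed between 5.65 and 8.09 on all 13 arrays and gave −0.41 for the same comparison (limma adjusted p = 0.62). So 1 of the 3 Krt14 probe sets showed neither the regional difference nor the high newborn signal.

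**Figure D1:**
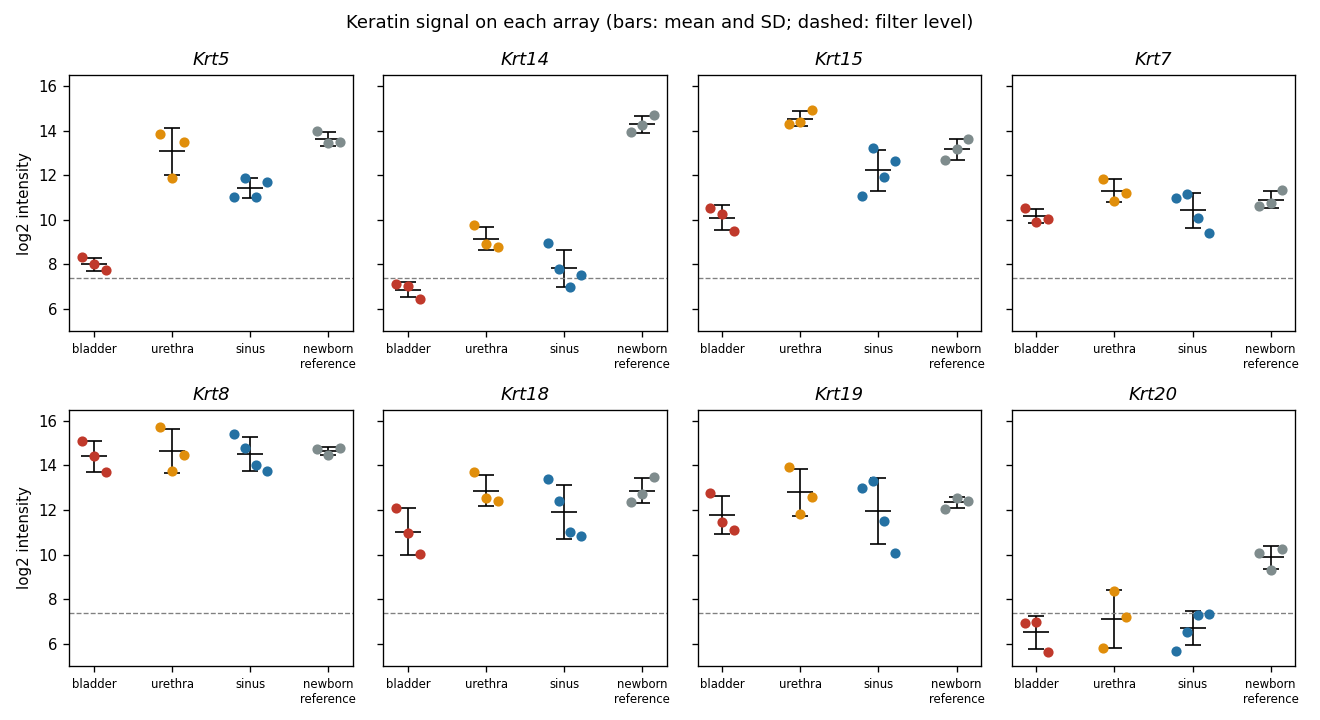
Log2 intensity of the 8 keratins on each of 13 arrays (points) in bladder, urethra, urogenital sinus and newborn reference, with the mean and SD as bars and the filter level of 7.39 as a dashed line. Krt5 and Krt15 are lowest on the 3 bladder arrays, Krt14 and Krt20 are high on the 3 newborn arrays alone, and Krt8 overlaps between all groups.

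Krt8, the type II keratin of simple epithelium, was strong in every region, and no difference between regions was called. It read 15.10, 14.42 and 13.71 in the bladder, 15.70, 13.77 and 14.48 in the urethra, 15.41, 14.80, 14.03 and 13.76 in the sinus, and 14.72, 14.45 and 14.77 in the newborn reference. The 3 regions overlapped one another on these arrays. Bladder minus sinus was −0.09 (95% interval −1.30 to 1.11 without adjustment), which leaves room for a difference of that size in either direction. Bladder minus urethra was −0.24 (−1.53 to 1.05) and urethra minus sinus 0.15 (−1.06 to 1.36). Its 2 other probe sets gave −0.36 and −0.16 for bladder minus sinus, and neither was called.

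Krt18, the type I partner of Krt8, spread more than Krt8 within the bladder and the sinus, and less within the urethra. It read 12.09, 10.99 and 10.01 in the bladder, 13.68, 12.55 and 12.39 in the urethra, 13.40, 12.41, 11.03 and 10.85 in the sinus, and 12.38, 12.71 and 13.47 in the newborn reference. Bladder and urethra arrays did not overlap, yet the difference of −1.84 (SE 0.73) was not called (limma adjusted p = 0.169). Bladder minus sinus was −0.89 (95% interval −2.42 to 0.64) and urethra minus sinus 0.95 (−0.58 to 2.48).

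Krt19, a small type I keratin found in both simple and stratified epithelia, had the widest spread inside a region. It read 12.76, 11.48 and 11.12 in the bladder, 13.93, 11.83 and 12.60 in the urethra, 13.001, 13.28, 11.50 and 10.06 in the sinus, and 12.06, 12.54 and 12.43 in the newborn reference. The sinus arrays alone spanned 3.22, and every pair of regions overlapped. Bladder minus sinus was −0.17 (95% interval −1.96 to 1.62) and bladder minus urethra −1.001 (−2.91 to 0.91).

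Krt7, a type II keratin of ducts and urothelium, stayed within a narrow band. It read 10.52, 9.91 and 10.06 in the bladder, 11.85, 10.84 and 11.21 in the urethra, 10.99, 11.16, 10.10 and 9.43 in the sinus, and 10.60, 10.76 and 11.33 in the newborn reference. All bladder arrays lay below all urethra arrays, and the difference of −1.14 (SE 0.47) was not called (limma adjusted p = 0.182). Bladder minus sinus was −0.25 (95% interval −1.24 to 0.74).

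Krt20, the type I keratin of mature superficial urothelial cells and of intestinal epithelium, was under the filter level on all but 1 region array. It read 6.92, 6.98 and 5.65 in the bladder, 5.80, 8.37 and 7.22 in the urethra, 5.68, 6.53, 7.31 and 7.32 in the sinus, and 10.10, 9.29 and 10.27 in the newborn reference. The exception was urethra replicate 2, and bladder replicate 8 was at the floor. Region differences of −0.20 (bladder minus sinus) and −0.61 (bladder minus urethra) thus compare signals that are mostly under the filter level.

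Between bladder and sinus, 1 of the 8 keratins (Krt5) was called, in the lower direction, where 1.73% of all genes tested were called lower. Krt5 and Krt15 were the 2 keratins whose bladder arrays all lay under the sinus arrays, where 10.6% of all genes did so. Between bladder and urethra 3 keratins were called lower (Krt5, Krt14 and Krt15), where 2.62% of all genes were. The arrays did not overlap for 5 keratins, all lower in the bladder, where 22.6% of all genes behaved so. Between urethra and sinus none of the 8 was called, and 0.0133% of all genes were called in either direction, so this comparison had few calls of any kind. At an unadjusted limma p under 0.05 it counted 10.4% of all genes, Krt5, Krt14 and Krt15 among them. Krt5 and Krt15 were higher without overlap in the urethra than in the sinus, where 4.9% of all genes were. The 3 called keratins are the 3 of basal type, and none of the other 5 was called between regions.

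The direction of the 3 basal keratins, lower in the bladder than in the other regions, was the same with quantile normalization and with arrays centred on their medians. The small differences of Krt7, Krt8 and Krt19 between bladder and sinus turned positive with median centring (0.33, 0.50 and 0.42). The median difference of all genes between bladder and sinus was −0.19, and it became 0.04 with quantile normalization and 0.38 with median centring. The split of calls moved with it: 260 genes were called lower and 122 higher as reported, 98 lower and 104 higher with quantile normalization, and 35 lower and 139 higher with median centring. For bladder minus urethra the counts were 394 lower and 257 higher as reported, 172 and 224 with quantile normalization, and 57 and 179 with median centring.

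**Figure D2:**
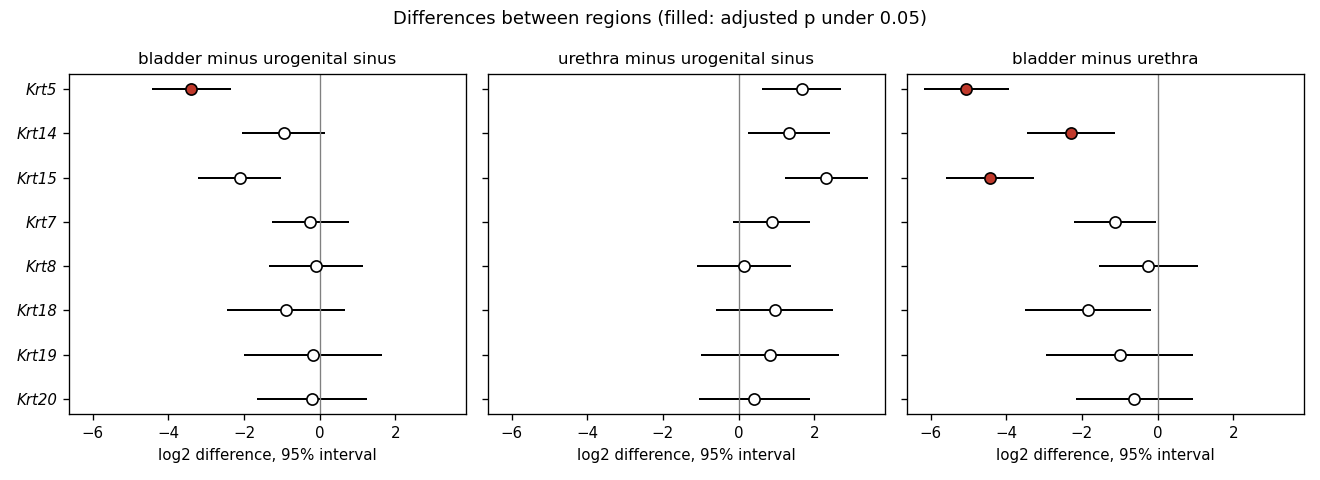
Log2 difference of each keratin (points) with its unadjusted 95% interval (lines) for bladder minus urogenital sinus, urethra minus urogenital sinus and bladder minus urethra, filled where the limma adjusted p was under 0.05. The filled points are Krt5 in the first panel and Krt5, Krt14 and Krt15 in the last, while the Krt8 intervals include 0 in all panels.

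General epithelial genes other than keratins also averaged lower in the bladder. Of 17 tested, 1 was called lower in the bladder than in the sinus, where 1.73% of all genes were. Against the urethra 2 were called lower, where 2.62% of all genes were. The mean of 17 such genes was 10.25, 9.86 and 9.55 in the bladder, 11.74, 10.62 and 11.32 in the urethra, and 10.97, 11.11, 10.36 and 10.22 in the sinus. Bladder and urethra did not overlap in this mean, while bladder replicate 2 lay just above sinus replicate 7. Their mean difference was −0.78 for bladder minus sinus and −1.34 for bladder minus urethra. Among the 17 genes, Grhl2, a transcription factor of epithelial identity, fell between bladder and sinus (−1.45, limma adjusted p = 0.0314), and Grhl2 and the tight junction gene Cldn3 fell between bladder and urethra (−2.15 and −3.33, limma adjusted p = 0.00715 and 0.0498). Cldn3 was under the filter level on every bladder array, so its fitted value stands for a difference of at least 5.25-fold. The list's median difference was −0.66 and −1.15 in these comparisons, against −0.19 and −0.25 over all genes.

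Set against that epithelial mean on the same array, Krt5 stood at −1.93, −1.86 and −1.82 in the bladder, 2.12, 1.27 and 2.15 in the urethra, and 0.06, 0.77, 0.67 and 1.49 in the sinus. The bladder arrays agreed closely with one another and did not overlap either region. The difference of these relative values was −2.62 for bladder minus sinus and −3.72 for bladder minus urethra, so Krt5 was lower in the bladder by more than the epithelial mean was. Krt15 gave −3.09 for bladder minus urethra without overlap, and −1.33 for bladder minus sinus with overlap through sinus replicate 1. Krt14 gave −0.17 for bladder minus sinus and −0.94 for bladder minus urethra. Krt8 went the other way, with relative values of 4.85, 4.56 and 4.16 in the bladder, 3.96, 3.14 and 3.16 in the urethra, and 4.44, 3.695, 3.67 and 3.54 in the sinus. Its bladder arrays did not overlap the urethra arrays, and the relative difference was 1.10. For bladder minus urethra Krt18 gave −0.50, Krt7 0.21 and Krt19 0.34, all with overlap. For bladder minus sinus they gave −0.12, 0.52 and 0.61, and of these only Krt7 was without overlap. These relative values are given as descriptions without a test.

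**Figure D3:**
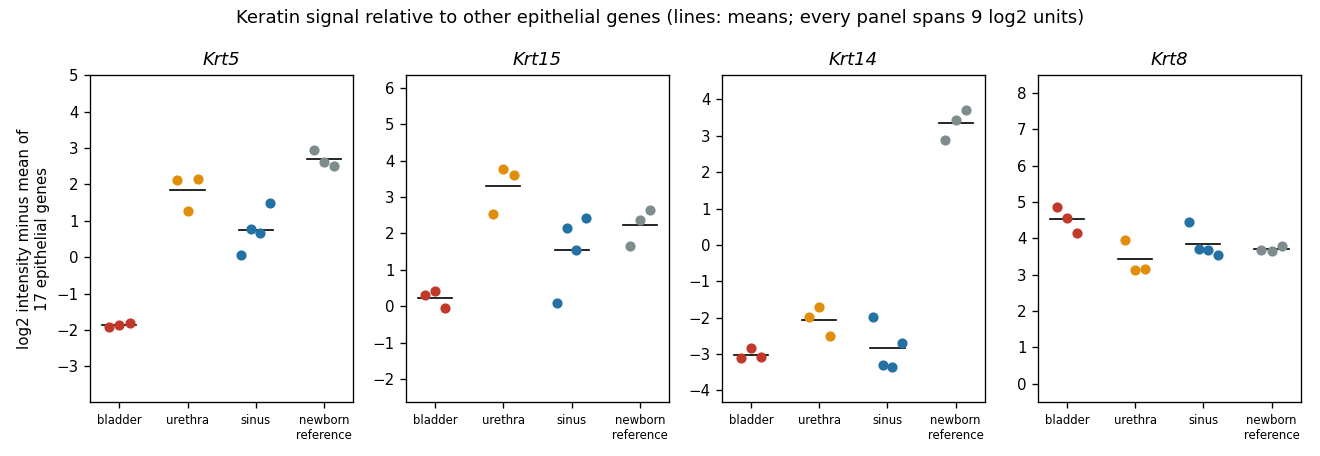
Log2 intensity of Krt5, Krt15, Krt14 and Krt8 minus the mean of 17 other epithelial genes on the same array (points, with group means as lines), by bladder, urethra, urogenital sinus and newborn reference. Krt5 lies between −1.93 and −1.82 in the bladder and above 0 in the other groups, and Krt8 is higher in the bladder than in the urethra.

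Against the newborn reference, the keratins called were those of stratified epithelium and Krt20. The reference mean entered the fit as 1 sample, taken to vary as much as the regions do. Krt20 would not have passed the filter on the region arrays, so a reference above the regions was built in for it. Lower calls were made for 4 of 8 keratins in the bladder (Krt5, Krt14, Krt15 and Krt20), where 11.2% of all genes were called lower. That background was 1683 genes lower and 874 higher, against 1256 and 1057 with quantile normalization and 971 and 1133 with median centring. In the urethra and in the sinus Krt14 was the 1 keratin called lower, where 8.87% and 9.2% of all genes were called lower. Krt14 fell by 7.41 in the bladder (SE 0.73, limma adjusted p = 8.07e-05), at least 119-fold against the filter level. It fell by 5.13 in the urethra (SE 0.73, limma adjusted p = 0.00116) and fell by 6.47 in the sinus (SE 0.70, limma adjusted p = 0.000179). With 1455573_at these were −1.10, −0.70 and −0.62 and were not called. In each region against the reference, 10 of 12 cornified epidermis genes and 7 of 7 intestinal genes were called lower. Among them Flg, Krtdap, Calml3, Fabp2, Vil1 and Tff3 were under the filter level on every region array. These genes passed the filter through the reference arrays alone, so lower values in the regions were built in. The part of epidermal and intestinal tissue in the keratin differences was not tested.

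Krt5 fell by 5.61 in the bladder relative to the reference (SE 0.69, limma adjusted p = 0.000405), while the urethra overlapped the reference (−0.56, limma adjusted p = 0.686). The sinus difference of −2.22 had a limma adjusted p of 0.0541, and it passed without urethra replicate 1 (0.0423), urethra replicate 2 (0.011) or reference replicate 2 (0.0425). Krt15 fell by 3.06 in the bladder (limma adjusted p = 0.0179), a call lost with median centring (0.118) and without bladder replicate 8 and urethra replicate 1 together (0.0637). Krt20 was called lower in the bladder (−3.37, limma adjusted p = 0.0401), at least 5.64-fold against the filter level, and its values in the urethra (−2.76) and the sinus (−3.17) had limma adjusted p of 0.0987 and 0.0521. The Krt20 call in the bladder was lost with quantile normalization (limma adjusted p = 0.0502), median centring (0.0552), no filter (0.0598) and without bladder replicate 8 and urethra replicate 1 together (0.0506). It was also lost when 1 of 7 arrays was left out (bladder 2, 6 or 8, urethra 6, sinus 2 or 6, or reference 3), with limma adjusted p from 0.0536 to 0.0952. In the sinus, Krt20 passed without urethra replicate 1 (0.0289), urethra replicate 2 (0.0347) or reference replicate 2 (0.0347).

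The simple keratins were not called against the newborn reference. Krt8 differed from the reference by −0.24 in the bladder, 0.003 in the urethra and −0.15 in the sinus, and none of Krt7, Krt8, Krt18 or Krt19 was called in any region. No overlap with the reference occurred for 6 keratins in the bladder, all lower, where 31.3% of all genes did so. It occurred for 2 in the urethra and 3 in the sinus in the lower direction, where 21.6% and 18.7% of all genes did. Each of these counts includes Krt20, which passed the filter through the reference arrays. Krt15 in the urethra was the 1 keratin higher than the reference without overlap, where 19.3% of all genes were. Its difference of 1.37 had a limma adjusted p of 0.27. Because the region comparisons with the reference share the same reference arrays, their values are set side by side and not correlated.

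Theiler stage was compared with region as a covariate, and 0 of 8 keratins and 0 genes (0% of all genes) were called by limma. At an unadjusted p under 0.05 the count was 3830 genes, 25.5% of those tested, and 4 keratins, Krt7, Krt8, Krt18 and Krt19. Krt18 had the largest shift of these relative to its error, −1.50 for stage 22 minus stage 21 (SE 0.35, unadjusted p = 0.00209, limma adjusted p = 0.077). Krt19 gave −1.51 (SE 0.51, limma adjusted p = 0.12), Krt8 −0.89 (SE 0.38, limma adjusted p = 0.186) and Krt7 −0.75 (SE 0.30, limma adjusted p = 0.162). The stage means of these 4 keratins were lower at stage 22 in all 3 regions. For Krt7, Krt8 and Krt19 the stage 22 urethra array lay between the stage 21 ones. For Krt18 the stage means were 10.50 at stage 22 and 12.09 at stage 21 in the bladder, 12.39 and 13.12 in the urethra, and 10.94 and 12.90 in the sinus.

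The 3 basal keratins did not share a stage difference. Krt14 gave −0.74 (SE 0.34, limma adjusted p = 0.214), close to Krt7, and its stage means were lower at stage 22 in all 3 regions, while Krt5 and Krt15 gave 0.01 (SE 0.40) and 0.03 (SE 0.43). A test of whether the stage difference varied between regions gave no unadjusted p under 0.119 for any keratin, with 1 or 2 arrays per stage and region. The 17 other epithelial genes had a median stage difference of −0.54, against −0.11 over all genes, and none of them was called. Both arrays rich in Hbb-bh1 are at stage 21, and without them Krt18 gave −1.16 (limma adjusted p = 0.181). Their part in the stage difference was not tested further.

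**Figure D4:**
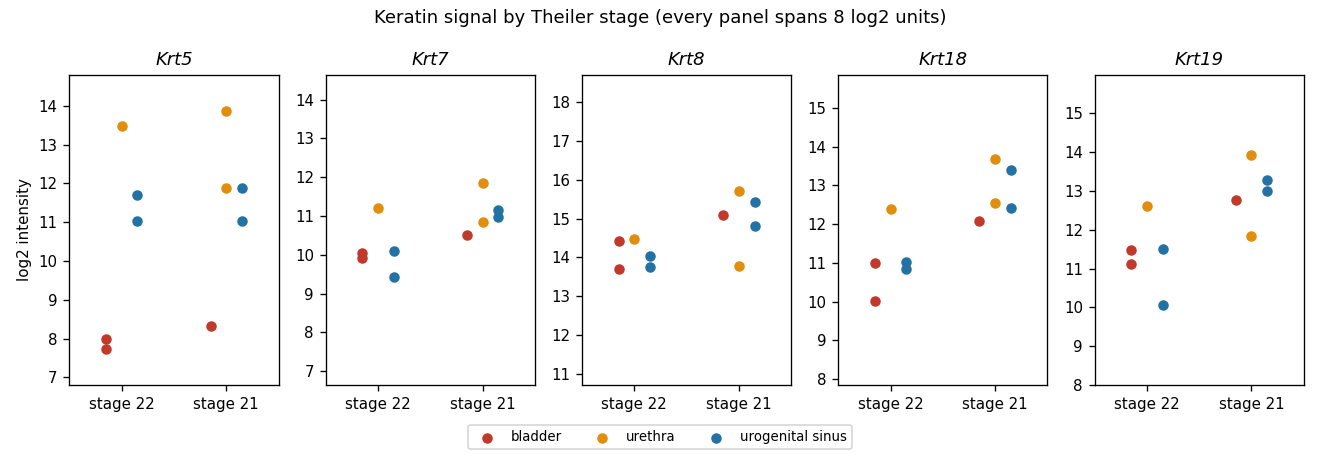
Log2 intensity of Krt5, Krt7, Krt8, Krt18 and Krt19 on the 10 region arrays (points coloured by region), with Theiler stage 22 left of stage 21. Krt18 and Krt19 average lower at stage 22 in each region, though for Krt19 the stage 22 urethra array lies between the stage 21 ones. Krt5 sets the bladder apart at both stages, while urethra replicate 2 and sinus replicate 2 nearly coincide at stage 21.

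The keratins were also followed from array to array. Over the 10 region arrays Krt5 and Krt15 had a Pearson r of 0.928 (Spearman rho 0.964), and Krt5 and Krt8 an r of 0.263 (rho 0.333). After removal of the region means, Krt5 and Krt15 kept an r of 0.493, so much of their likeness lay in the regional difference. Krt8, Krt18, Krt19 and Krt7 kept r values of 0.821 to 0.982 with one another after that removal, with Krt7 and Krt19 the closest pair. Krt14 followed Krt18 (0.89), Krt8 (0.83), Krt19 (0.65) and Krt7 (0.633) more than Krt5 (0.202) within regions. Theiler stage was left in these deviations, and its part in them was not tested. Krt20 ran against the 4 simple keratins, at −0.442 to −0.662, on signals mostly under the filter level. The points share array scaling and RNA amount, and these values are descriptions over 10 arrays.

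**Figure D5:**
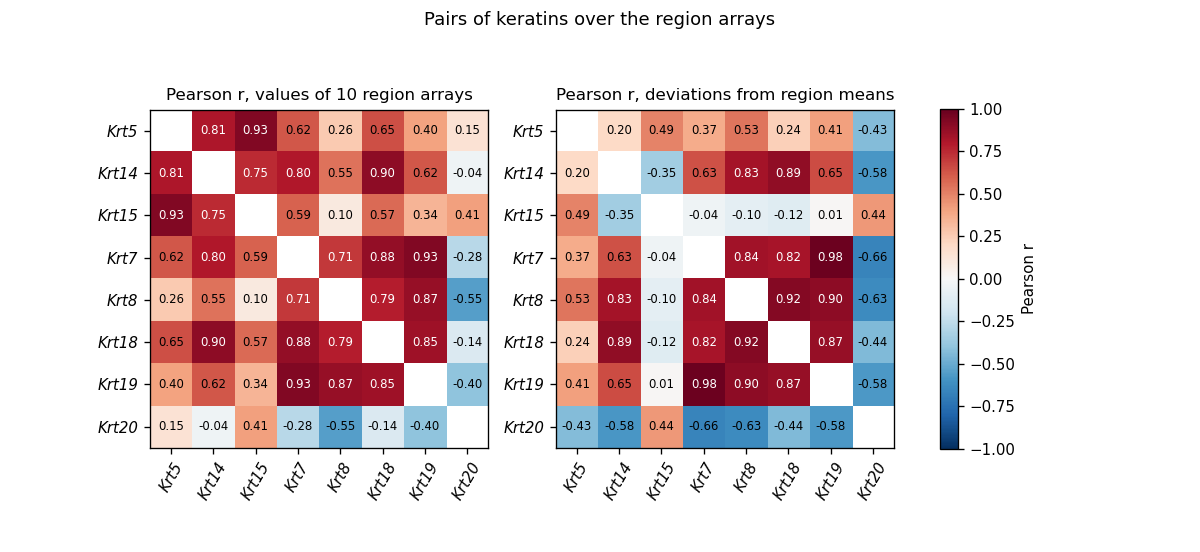
Pearson r between keratins over the 10 region arrays, from the values themselves (left) and from deviations from the region means (right), coloured from −1 to 1. Krt7, Krt8, Krt18 and Krt19 form a block of high values on the right. With these keratins Krt14 has values of 0.63 to 0.89, whereas Krt15 has values near 0.

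The genes whose values followed each keratin most closely over the 10 region arrays were also listed, 3 per keratin. They were picked for the highest r among all genes tested, with the region means left in. A high r thus follows from the choice and was not tested. For Krt5 they were Btbd11 (r = 0.992), Ndp (0.972), which encodes the secreted protein norrin, and the carbonyl reductase Cbr2 (0.971). Cbr2 averaged 6.29 in the bladder, 11.16 in the urethra and 9.38 in the sinus. For Krt15 they were the homeobox gene Irx2 (0.984), the forkhead gene Foxf2 (0.977) and Zfp2 (0.965). Irx2 averaged 6.71 in the bladder, 10.70 in the urethra and 8.53 in the sinus, the order that Krt15 showed. For Krt8 they were Smagp (0.947), Cyb5r3 (0.941) and Gfm2 (0.936), and for Krt18 Rpl7l1 (0.982), Upk3bl (0.978) and Slc10a3 (0.976). The lists for Krt19 (Chid1, Tmbim6 and Srprb), Krt7 (Bex3, Ube2q1 and Bag6), Krt14 (Ndufb11, Syne4 and Dusp7) and Krt20 (Ccdc117, Ryk and Spaca6) had r of 0.941 to 0.983.

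The other keratins of the array, a list of 17 epithelial keratins that are not members, was read in the same way. Bladder minus sinus and urethra minus sinus had 0 of 17 called, and at bladder minus urethra 3 were called lower, where 2.62% of all genes were. Krt4, a type II keratin of internal stratified mucosa, read 7.83, 6.16 and 7.24 in the bladder, 11.14, 10.08 and 11.34 in the urethra, and 9.53, 10.94, 9.05 and 8.96 in the sinus. It fell by 3.78 in the bladder relative to the urethra (SE 0.63, limma adjusted p = 0.0146). Krt17 and Krt6a, keratins of appendages and activated epithelium, had fitted differences of −2.96 (limma adjusted p = 0.0169) and −2.79 (limma adjusted p = 0.017) in that comparison. Krt17 was under the filter level on every bladder array, and its difference is at least 2.79-fold against that level. The list medians were −0.32 for bladder minus sinus, 0.40 for urethra minus sinus and −0.67 for bladder minus urethra, against −0.19, 0.05 and −0.25 over all genes. Against the newborn reference, 16 of 17 were called lower in the bladder, 14 in the urethra and 16 in the sinus. The shares of all genes called lower there were 11.2%, 8.87% and 9.2%. Krt6b, Krt12, Krt13, Krt16, Krt23 and Krt76 were under the filter level on every region array. They passed the filter through the reference arrays alone, so their lower values in the regions were built in.

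Genes that anchor keratin filaments at desmosomes and hemidesmosomes were mixed. Of 18 tested, bladder minus sinus had 1 called lower and 1 higher, where 2.54% of all genes were called, and bladder minus urethra 4 lower and 1 higher, where 4.33% were called. Pkp1, a plakophilin of desmosomes in stratified epithelium, read 6.29, 6.38 and 5.65 in the bladder, 11.51, 10.06 and 11.84 in the urethra, and 10.43, 10.06, 8.93 and 10.87 in the sinus. Every bladder array was under the filter level, and Pkp1 fell by 3.97 relative to the sinus (limma adjusted p = 0.0102) and fell by 5.03 relative to the urethra (limma adjusted p = 0.00347), both fitted values. Against the filter level it was at least 6.43-fold and 13.4-fold lower. Dsc2, a desmosomal cadherin, went the other way, with 11.27, 12.02 and 12.43 in the bladder, 8.72, 8.23 and 9.02 in the urethra, and 9.44, 9.53, 10.04 and 10.35 in the sinus. It was higher in the bladder by 2.07 relative to the sinus (limma adjusted p = 0.023) and by 3.25 relative to the urethra (limma adjusted p = 0.00413). The laminin-332 subunits Lamb3 and Lama3, and Pkp3, fell between bladder and urethra, with differences of −2.69, −2.41 and −2.48 (limma adjusted p = 0.0181, 0.0366 and 0.0473). Lamb3 was under the filter level on every bladder array, and its difference is at least 3.65-fold.

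Among 8 tested transcription factors and partners of basal epithelium, 2 were called lower in the bladder than in the sinus, where 1.73% of all genes were. Against the urethra 3 were called lower, where 2.62% of all genes were. Sox2, a transcription factor of progenitor cells, read 8.06, 7.97 and 7.68 in the bladder, 13.01, 12.47 and 13.24 in the urethra, and 10.75, 12.63, 12.02 and 13.17 in the sinus. It fell by 4.24 in the bladder relative to the sinus (limma adjusted p = 0.0045) and fell by 5.002 relative to the urethra (limma adjusted p = 0.0023). Tfap2a, an AP-2 factor of surface epithelium, had differences of −2.78 (limma adjusted p = 0.0102) and −4.34 (limma adjusted p = 0.00174) in the same comparisons, and Klf5 fell by 1.29 against the urethra (limma adjusted p = 0.0275). Trp63, the p63 gene that basal layers need, was not called. It read 11.38, 12.06 and 11.52 in the bladder, 13.70, 12.27 and 13.84 in the urethra, and 11.48, 12.58, 12.71 and 14.07 in the sinus, and was above the filter level on all of them.

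Markers of other cell types moved with some of these comparisons. Over all genes, 2.54% were called between bladder and sinus and 4.33% between bladder and urethra, in either direction. The mean of 8 smooth muscle genes was 11.39 to 12.14 in the bladder, 10.61 to 11.97 in the urethra and 8.75 to 10.39 in the sinus, with 5 of 8 called higher in the bladder than in the sinus. The mean of 7 mesothelial genes, whose cells also express simple keratins, was 9.30 to 9.66 in the bladder, 7.54 to 8.68 in the urethra and 8.64 to 9.43 in the sinus, with 1 of 7 (Upk3b) called higher in the bladder than in the urethra. The mean of 7 neuronal genes was 6.63 to 8.66 in the bladder, 7.0 to 9.70 in the urethra and 6.67 to 12.48 in the sinus, with 1 of 7 called lower in the bladder than in the sinus. The mean of 7 intestinal genes was 6.49 to 6.85 in the bladder, 6.61 to 6.78 in the urethra and 6.51 to 7.67 in the sinus, with none called, and the intestinal marker Vil1 was at or near the floor on every region array. The mean of 12 cornified epidermis genes was 7.54 to 7.76 in the bladder, 7.72 to 7.83 in the urethra and 7.57 to 8.28 in the sinus. The part of these cell types in the keratin differences was not tested.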

How the data were processed

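The data, deposited by the authors as a single table, are linear intensities of 45101 probe sets on 13 arrays, 3 of bladder, 3 of urethra, 4 of urogenital sinus and 3 of newborn reference. GCOS, Affymetrix software, is the tool that appears in the submitters' processing notes. The probe set summary method and scaling target were not given in the sources used here. RNA was amplified before labelling, per the labels, which favours the 3′ ends of transcripts. The deposited intensity values had the same trimmed mean on every array and were used without rescaling. Values under 50.23, the table's 20th percentile, were set to it before the log2 step, and 64 control probe sets were set aside. A gene needed an intensity above the 40th percentile (167.76) on 3 arrays. Differences were tested with limma 3.58.1 in R 4.3.3 (lmFit, eBayes with an intensity trend, two-sided), in 1 fit of the 10 region arrays, with the reference mean added for comparisons with it. The fit was tested on simulated data. A fold against a group wholly under the filter level is a bound against that level. The number of arrays limits the precision.

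The members and gene lists were chosen with earlier results of these data known. The genes named are the members, the 3 closest genes to each, and called members of the lists with the smallest adjusted p. Alternatives covered scaling, floor, filter, probe set choice, model terms, array weights and left-out arrays.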

Additional observations from a re-analysis of the deposited data

How the results depend on the processing

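Every keratin difference called in the report kept its sign under each alternative run, and the calls that were lost are given there or here. The arrays differ in median, and scaling moved the median difference of all genes: for bladder minus reference it was −0.27 as reported, 0.10 with quantile normalization and 0.58 with arrays centred on their medians. Over the alternatives, 1159 keratin differences kept their side of the threshold and their sign, 34 newly passed, 35 no longer passed and 88 changed sign, the last all among differences that were not called. The causes of these changes were not tested, and signals under the filter level limit Krt14 and Krt20.

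Counts of called genes, reported as 382 (bladder minus sinus), 2 (urethra minus sinus), 651 (bladder minus urethra), 2557 (bladder minus reference), 1987 (urethra minus reference), 2076 (sinus minus reference) and 0 (stage), moved as follows. Bladder minus sinus gave 202 with quantile normalization, 174 with median centring, 235 with no filter and 2668 with array weights. It gave 766 without both arrays numbered 1 and 223 without bladder 8 and urethra 1, both chosen after seeing the data. Urethra minus sinus gave 1 with quantile normalization, median centring, stage as a covariate or no intensity trend, 4 with no filter, 11 with no floor, 664 with array weights, 14 with title style as a block, and 0 in both added settings. Bladder minus urethra gave 396 with quantile normalization, 236 with median centring, 1873 with array weights, 55 with title style and 79 without bladder 8 and urethra 1. Bladder minus reference gave 5791 with array weights, 4249 with title style and 5390 with the reference arrays as 3 samples. Urethra minus reference gave 1304 with median centring, 3867 with array weights, 2997 with title style and 4196 with 3 reference samples. Sinus minus reference gave 1326, 5270, 3357 and 4327 in the same 4 settings. Stage gave 366 genes and 1 keratin (Krt18) with no floor, and 1421 and 1 (Krt18) with array weights.

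The count of called keratins changed too. Bladder minus sinus had 0 with median centring, and 2 (Krt5 and Krt15) with no floor, the mean of probe sets, array weights, title style or without both arrays numbered 1. Urethra minus sinus had 3 with array weights (Krt5, Krt14 and Krt15, limma adjusted p = 0.0266, 0.0269 and 0.01). Bladder minus urethra had 1 with title style (Krt5), a fit that tells title style from urethra only through the reference arrays. Bladder minus reference had 2 with median centring or without bladder 8 and urethra 1. Urethra minus reference had 2 with array weights or title style and 3 with 3 reference samples. Sinus minus reference had 3 with quantile normalization, array weights, title style or 3 reference samples, and 2 with no floor or in either added setting.

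No label ties the replicate numbers to an animal or day, so the numbers were not used as pairs in the main fit. Of 7 same-numbered pairs of arrays from different regions 5 had a correlation over 0.1 (range −0.168 to 0.362). Among pairs with different numbers it was 9 of 26 (range −0.513 to 0.413). Whether same-numbered arrays share an animal is not known. With the replicate block, bladder minus sinus had 132 genes and 0 keratins called (Krt5 −3.02, limma adjusted p = 0.13), and urethra minus sinus 0 and 0. Bladder minus urethra had 140 and 1 (Krt15). The calls of Krt5 (−4.79, limma adjusted p = 0.051) and Krt14 (−1.67, limma adjusted p = 0.112) were lost in it. Krt8 then read 0.44, −0.10 and 0.54 in these comparisons. The block was not possible for stage, which the numbers determine, and was not run for the reference.

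Signs turned in differences near 0. For bladder minus sinus, Krt8 read 0.50 with median centring, 0.39 with array weights, 0.056 with stage, 0.21 without both arrays numbered 1 and 0.26 without bladder 8 and urethra 1. Krt19 read 0.42, 0.24, 0.08, 0.18 and 0.16 there, Krt7 0.33 with median centring, and Krt20 0.24 without bladder 8 and urethra 1. For urethra minus sinus, Krt8 read −0.073 and −0.38 in the 2 added settings, Krt20 −0.069 with title style, and Krt14 −0.081 with 1455573_at. For bladder minus urethra, Krt8 read 0.23 with median centring, 0.056 with stage, and 0.29 and 0.64 in the added settings. For bladder minus reference, median centring gave 0.11 (Krt7), 0.61 (Krt8) and 0.29 (Krt19), and Krt8 read 0.11 without bladder 8 and urethra 1. For sinus minus reference, Krt8 read 0.11 with median centring. For urethra minus reference, Krt8 read −0.003 with quantile normalization, −0.01 with the mean of probe sets, −0.13 with array weights, −0.15 with stage, −0.12 with title style, −0.52 in both added settings, and −0.001 and −0.031 with its other probe sets. Krt18 read −0.073 (quantile), −0.18 (weights), −0.23 (stage), −0.60 (title style) and −0.39 (both added settings), Krt19 −0.12 (both added settings) and Krt7 −0.033 (title style). For stage, Krt5 and Krt15 read −0.19 and −0.25 with array weights, Krt15 and Krt20 −0.45 and −0.25 without both arrays numbered 1, and Krt14 0.19 with 1455573_at.

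Leaving out 1 array at a time gave 46 to 647 called genes for bladder minus sinus (0 to 2 keratins), 0 to 22 for urethra minus sinus, 111 to 1292 for bladder minus urethra and 0 to 3 for stage, with 1 to 2 keratins for urethra minus reference and 1 to 3 for sinus minus reference. Ranges that crossed 0 were, for bladder minus sinus, −0.44 to 0.26 (Krt8), −0.81 to 0.27 (Krt19) and −0.54 to 0.24 (Krt20), and for urethra minus sinus −0.38 to 0.59 (Krt8) and −0.21 to 1.08 (Krt20). For bladder minus urethra they were −0.68 to 0.29 (Krt8) and −1.28 to 0.011 (Krt20), and for bladder minus reference −0.58 to 0.11 (Krt8). For urethra minus reference they were −0.95 to 0.036 (Krt5), −0.52 to 0.44 (Krt8), −0.39 to 0.33 (Krt18) and −0.12 to 0.93 (Krt19), and for sinus minus reference −0.45 to 0.10 (Krt8) and −0.82 to 0.25 (Krt19). For stage they were −0.27 to 0.19 (Krt5) and −0.35 to 0.37 (Krt15).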

Other observations

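The urothelial differentiation genes did not share one regional order. Of 10 tested, 2 were called lower in the bladder than in the sinus by limma, where 1.73% of all genes were. Against the urethra 3 were called lower, where 2.62% of all genes were, and none was called higher in either comparison. Foxa2, an endodermal transcription factor, read 5.65, 6.53 and 5.65 in the bladder, 10.95, 10.44 and 10.27 in the urethra, and 10.16, 10.57, 9.31 and 9.53 in the sinus, with fitted differences of −4.61 against the urethra (limma adjusted p = 0.00174) and −3.95 against the sinus (limma adjusted p = 0.00387). Its bladder arrays were all under the filter level, against which it was at least 8.97-fold and 5.66-fold lower. Gata3 fell by 2.75 in the bladder relative to the urethra and fell by 2.44 relative to the sinus (limma adjusted p = 0.00704 and 0.0111), and Shh fell by 1.63 relative to the urethra (limma adjusted p = 0.0202). The uroplakin Upk1b, by contrast, read 13.27, 13.24 and 12.70 in the bladder, 12.69, 10.87 and 11.89 in the urethra, and 12.33, 12.70, 10.98 and 10.61 in the sinus. Upk3a read 11.43, 11.18 and 9.29 in the bladder, 8.92, 8.84 and 8.75 in the urethra, and 9.01, 10.50, 8.61 and 7.59 in the sinus, and neither uroplakin was called between regions.

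The cornified envelope genes Lor and Ivl differed in opposite directions between bladder and sinus. Lor fell by 2.06 in the bladder (limma adjusted p = 0.0176), and Ivl, with 9.08, 8.98 and 8.12 in the bladder against 7.61, 6.90, 6.27 and 5.65 in the sinus, was higher by 2.12 (limma adjusted p = 0.0454).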
